A study of Mus musculus with 24 samples.

Results

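Cdx2 regions in gene deserts were those whose summit lay outside every protein-coding gene and more than 100 kb from every protein-coding transcript start. Peaks of the 12 Cdx2 libraries were merged where they overlapped, and of the 35518 regions called in at least 2 libraries, 10161 (28.6%) lay in gene deserts. The remaining 25357 regions are called other regions here. The median gene-desert region was 362 kb from the nearest protein-coding start (quartiles 194 and 669 kb), and the farthest 2674 kb. Among the regions called in at least 2 libraries, the choice rested on position alone. The calls themselves depend on signal, and the peak lists ran from 5608 to 42192 peaks per library. Libraries with long lists could therefore bring in more regions. The counts by library and group below rest on the same calls.

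Cdx2 binding was mapped by ChIPmentation, an immunoprecipitation of chromatin that is tagged with a transposase for sequencing, in colon organoids from 3 female mice of 8 weeks. Proximal organoids came from the start and distal organoids from the end of the colon. All groups carried a heterozygous Cre-inducible BRAFV600E allele and a heterozygous tdTomato reporter, neither of them induced, and all had been cultured for 4 months. WENR-plus medium held Wnt3a, EGF, Noggin and R-spondin 1. WENR-minus cultures were plated for 2 days in WENR-plus and then grown for 3 days without these factors. The 2 sites and 2 media make 4 groups of 3 libraries, numbered 1 to 3. The peak lists used here hold no read totals, the totals stated in the study were not used here, and cell identity could not be checked from peaks. The 4 libraries of replicate 3 stood apart from the others in their gene-desert share, and the main tests are given without them as well.

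Cdx2 is a caudal-type homeobox factor that controls the identity of the intestinal epithelium and binds AT-rich DNA. Long stretches without protein-coding genes often flank genes of development and growth control and can hold enhancers that act over a great distance. The nearest gene is used below only to name a place. It is not shown to be a target.

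The sequences under some of the highest-ranked gene-desert regions are shown first, for the letters at their summits. All but that of the Nectin3 region hold a match to the motif that Cdx2 is known to bind. Each is the plus strand of 101 bp centred on the median summit, from the GRCm38 (mm10) genome. Capitals mark a match to the Cdx2 motif, taken as 7 letters that begin with TTTAT, go on with G or T and end with A or G, or their reverse complement. The regions were called in all 12 libraries, and each is named after the gene with the nearest protein-coding start.
Rnd3 region, chr2:50921158-50921258: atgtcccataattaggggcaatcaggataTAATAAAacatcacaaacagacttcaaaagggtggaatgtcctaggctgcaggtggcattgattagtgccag
Cdh9 region, chr15:15830147-15830247: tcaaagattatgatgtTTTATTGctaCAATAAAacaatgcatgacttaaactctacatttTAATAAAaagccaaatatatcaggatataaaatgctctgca
Mat2b region, chr11:39954044-39954144: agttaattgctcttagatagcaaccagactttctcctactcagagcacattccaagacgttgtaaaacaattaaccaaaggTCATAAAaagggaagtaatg
Ptger4 region, chr15:5604923-5605023: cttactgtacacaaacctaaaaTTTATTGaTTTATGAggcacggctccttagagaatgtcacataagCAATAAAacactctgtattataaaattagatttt
Dab2 region, chr15:5816419-5816519: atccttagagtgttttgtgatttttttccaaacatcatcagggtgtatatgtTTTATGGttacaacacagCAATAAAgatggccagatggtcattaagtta
Nectin3 region, chr16:46848232-46848332: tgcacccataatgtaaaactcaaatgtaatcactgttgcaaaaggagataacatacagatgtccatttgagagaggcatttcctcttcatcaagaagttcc

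The Rnd3 region (chr2:50920382-50921595) lay 228 kb from the start of Rnd3 and had the highest median rank. A rank here is the percentile of a region's fold enrichment among the peaks of its own library, and its median over the 12 libraries was 99.9. Its fold enrichment over input was 38.4, 54.9 and 77.9 in proximal WENR-plus, 42.7, 35 and 40 in proximal WENR-minus, 30, 28 and 40.5 in distal WENR-plus, and 13.2, 10.3 and 15.4 in distal WENR-minus organoids (replicates 1, 2 and 3 in turn). The lowest of these values were those of the 3 distal WENR-minus libraries, where its rank still did not fall under 92.3. Fold enrichment was computed against the input and depth of each library, so its order between libraries was not tested for single regions.

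The Cdh9 region (chr15:15829555-15830842), 899 kb from the gene of the cell adhesion molecule cadherin 9, was the steadiest of the top regions, with a rank of at least 99.1 in every library. Its folds were 41.8, 40.1 and 46.2 in proximal WENR-plus, 46.2, 42.1 and 38.5 in proximal WENR-minus, 21.6, 31.1 and 23 in distal WENR-plus and 34.2, 28.4 and 21 in distal WENR-minus organoids. All 6 proximal values were above all 6 distal values, but its ranks overlapped between the sites (99.8 to 99.9 and 99.1 to 99.9). How often the folds separate by site was not counted over all gene-desert regions or all regions. This limit holds for each such order given below. The window held 3 matches to the motif, and a match lay within 50 bp of the summit in all 12 libraries.

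A pair of top regions lay in the same desert between Ptger4, which encodes the prostaglandin E2 receptor EP4, and Dab2, which encodes an endocytic adaptor. The first (chr15:5604408-5605807) lay 361 kb from Ptger4, with folds of 42.5, 61.1 and 46.6 in proximal WENR-plus, 48.4, 51.2 and 37 in proximal WENR-minus, 12.1, 19.1 and 12.8 in distal WENR-plus and 21.3, 16.6 and 12.9 in distal WENR-minus organoids. The lowest proximal value was above the highest distal one. The second (chr15:5815919-5817174), 483 kb from Dab2, ranged from 13.3 to 44.2, and the sites overlapped. Each held the motif near the summit in 12 of 12 libraries.

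The Nectin3 region (chr16:46847590-46848931) had no match within 50 bp of the median summit, although 5 of its 12 library summits had one. Its folds ran from 7.42 to 65, with the lowest value in distal WENR-minus and the highest in proximal WENR-plus. The lowest proximal fold, 31.7, was above the highest distal one, 25.9, but its ranks overlapped between the sites.

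A further 4 of the 10 highest-ranked regions in all 12 libraries were nearest to Mat2b (739 kb, folds 11.6 to 48.4), Fat1 (480 kb, 13.6 to 47), Irf2bp2 (146 kb, 17 to 37) and Lacc1 (219 kb, 14.8 to 40.7). Fat1 encodes an atypical cadherin and Mat2b a subunit of methionine adenosyltransferase. In the Fat1 region the lowest proximal fold, 31.4, was just above the highest distal one, 31.1, and the ranks overlapped. The lowest rank of these 4 regions in any library was between 92 and 98.6.

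**Figure D1:**
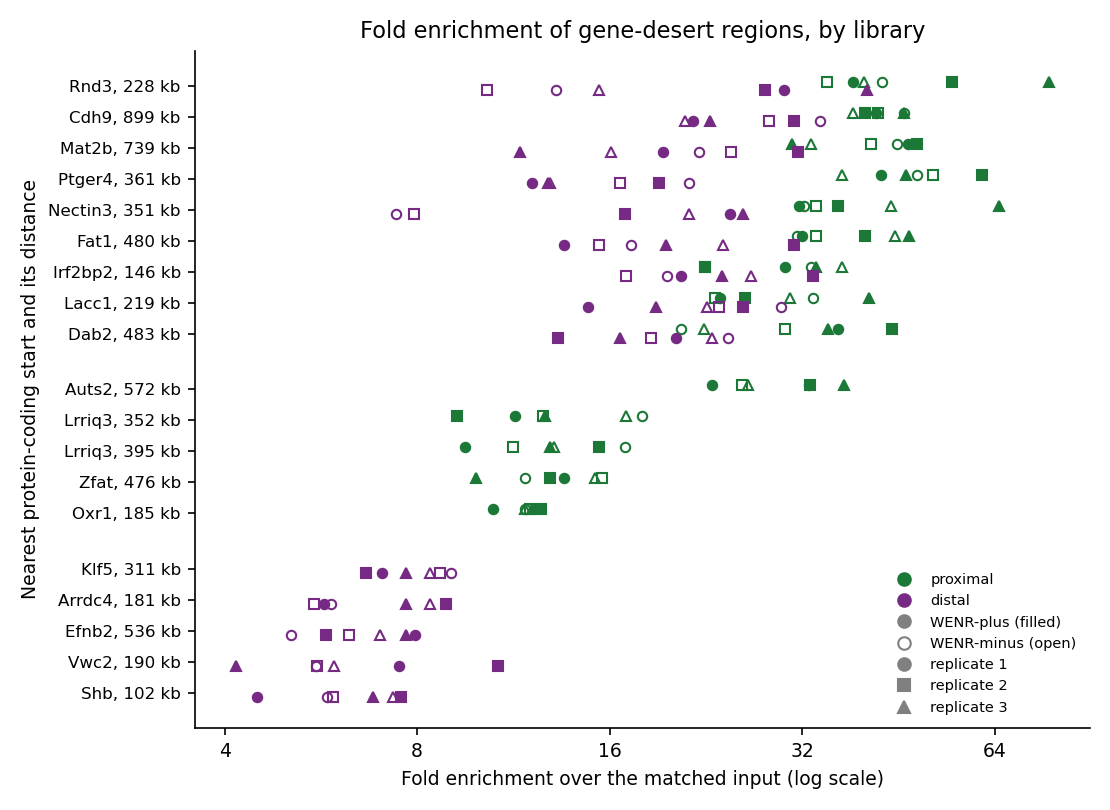
Fold enrichment over the matched input (x axis, log scale) of gene-desert regions, 1 point per library in which the region was called, named on the y axis by the nearest protein-coding start and its distance. The upper block holds 9 of the 10 highest-ranked regions called in all 12 libraries, the middle block the top 5 called in 6 proximal and 0 distal libraries and the lower block the top 5 called in 6 distal and 0 proximal libraries. The distal-only regions shown sit between 4.17 and 10.7 and the proximal-only regions shown at 9.25 to 37.2. They were picked from 8 and 109 regions and measured in different libraries.

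The number of gene-desert regions varied widely between libraries of 1 group. In proximal organoids there were 7365, 8925 and 2124 in WENR-plus and 6300, 4369 and 1635 in WENR-minus medium. In distal organoids there were 1761, 2854 and 807 in WENR-plus and 5708, 1671 and 1128 in WENR-minus medium. Replicate 3 was the lowest in each group, and the ranges of all 4 groups overlapped.

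As a share of the regions of its own library, gene-desert regions made up 28%, 29.8% and 16.9% in proximal WENR-plus, 26.2%, 29.1% and 15.2% in proximal WENR-minus, 24.8%, 23.1% and 15.1% in distal WENR-plus and 30.8%, 22.3% and 15.1% in distal WENR-minus organoids. The 4 libraries of replicate 3 had shares of 15.1% to 16.9%, and the other 8 had 22.3% to 30.8%. The counting error of a single share was small, with 95% Wilson intervals such as 27.4% to 28.5% for proximal WENR-plus replicate 1 and 14.1% to 16% for distal WENR-plus replicate 3. The 4 replicate 3 libraries also stood apart in base composition: the mean GC content within 100 bp of their gene-desert summits was 37% to 38.2%, against 32.1% to 34.2% in the other libraries. The cause was not tested.

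The first comparison asked whether the colon site changed the number of gene-desert regions. In WENR-plus medium proximal libraries had 6138 ± 3563 and distal libraries 1807 ± 1024 (SD, n = 3 each). The difference of the log2 means was 1.70, a 3.25-fold difference, and did not pass the two-sided exact permutation test (p = 0.2, Benjamini-Hochberg adjusted 0.667 over 4 comparisons; the smallest p that 3 against 3 allows is 0.1). In lists cut to equal length this difference was 0.12 on the log2 scale (exact permutation p = 0.6). Such lists hold the same number of peaks by design, so this value mostly restates the share and is no separate check of the number. In WENR-minus medium the counts were 4101 ± 2344 and 2836 ± 2502 (SD, n = 3 each), a log2 difference of 0.69 (exact permutation p = 0.5). With the same limit, the difference in lists of equal length was 0.00. The proximal count was the higher one for 3 of 3 replicate numbers in each medium. Without replicate 3 the log2 differences between the sites were 1.86 and 0.76, and those between the media 0.63 in proximal and -0.47 in distal organoids.

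The second comparison asked whether withdrawal of the niche factors changed it. Proximal organoids differed by a log2 value of 0.54 (WENR-plus minus WENR-minus, exact permutation p = 0.5) and distal organoids by -0.47 (exact permutation p = 0.7). By replicate number the proximal differences were 0.23, 1.03 and 0.38 and the distal ones -1.70, 0.77 and -0.48. Distal replicate 1 set the sign of the distal value, which was 0.15 without it. Between the sites, the medium effect differed by 1.01 (exact permutation p = 0.3 over 6 lines, a line being the organoids of 1 site and replicate number).

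The share of gene-desert regions did not differ beyond the replicate spread in any of these comparisons. It was 24.9% ± 6.97 in proximal and 21% ± 5.2 in distal WENR-plus, and 23.5% ± 7.31 in proximal and 22.7% ± 7.87 in distal WENR-minus organoids (SD, n = 3 each; exact permutation p from 0.5 to 0.9 over the 4 comparisons). Without replicate 3 the share differences between the sites were 5.16 and 1.15 percentage points, and those between the media 1.33 in proximal and -2.68 in distal organoids. Distal replicate 1, with 30.8% in WENR-minus and 24.8% in WENR-plus, differed most between media. The other 5 lines changed by 1.81 percentage points or less.

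**Figure D2:**
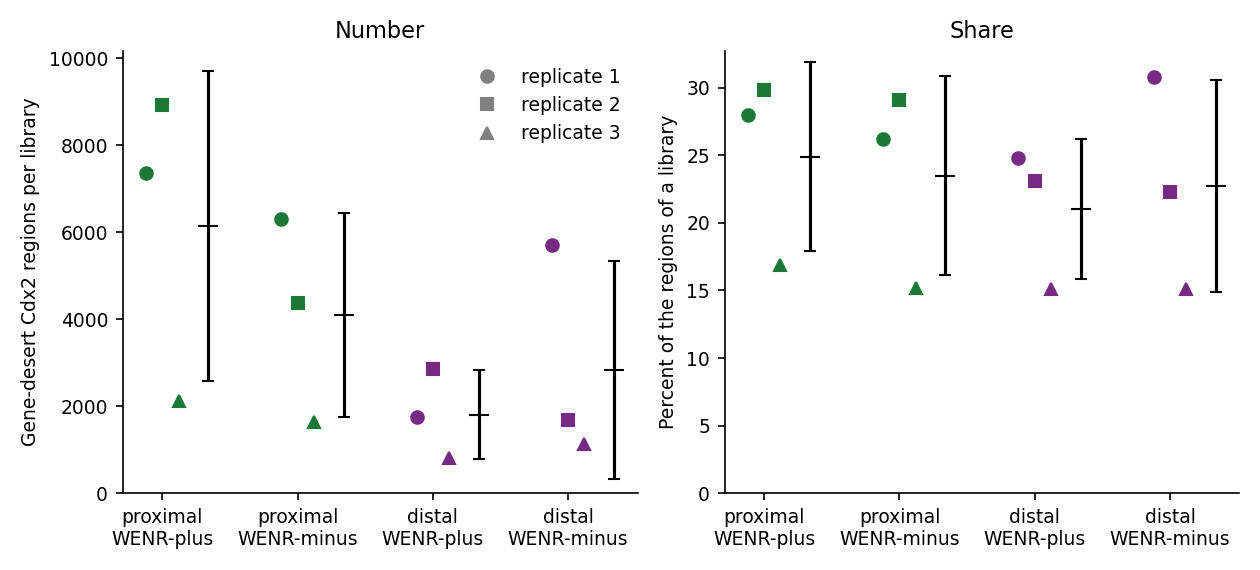
Number of gene-desert Cdx2 regions (left) and their share of the regions of a library in percent (right) in the 4 groups of 3 libraries. Symbols give the replicate number, and black bars the mean and SD. Replicate 3 (triangles) is the lowest point in all 4 groups of both panels.

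Taken as a whole, gene deserts held fewer Cdx2 regions per Mb than the rest of the genome. With chromosome Y counted, they took up 854.7 Mb (32.3%) of the sequence without unknown bases and held 11.9 regions per Mb, against 14.1 in the rest. Within libraries, and averaged over the media of a line, the density ratio of desert to rest had a mean log2 value of -0.72 ± 0.53 (SD, n = 6 lines), a ratio of 0.608. It was below 0 in 6 of 6 lines (two-sided exact sign permutation p = 0.031, the smallest that 6 lines allow). By line it was -0.36, -0.19 and -1.32 in proximal and -0.32, -0.70 and -1.43 in distal organoids, lowest in replicate 3 at both sites, and -0.38 without replicate 3. All these values count chromosome Y, with 59.5 Mb of desert and 2 regions, although the mice were female and should carry none. Without it deserts took up 795 Mb and held 12.8 regions per Mb, against 14.4 in the rest. The mean log2 value was then -0.64 ± 0.53, a ratio of 0.643, again below 0 in 6 of 6 lines. The organoids of both sites came from 3 mice, so the 6 lines share mice, and the labels do not say which. With the 3 replicate numbers as units in place of the 6 lines, the exact permutation p was 0.25, the smallest possible. This limit holds for every test over 6 lines below.

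Across chromosomes, gene-desert regions per Mb of desert ran from 8.45 on chromosome 7 to 15.2 on chromosome 16, chromosome Y aside. They made up 13.7% of the regions of chromosome 19 and 40.8% of those of chromosome 12. On chromosomes 15, 16 and X the density in deserts was above that in the rest of the chromosome (15, 15.2 and 14.1 against 13.7, 14.9 and 12.9 per Mb), and on chromosome 5 both were 14.

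Density also changed with distance inside the deserts, and replicate 3 went against the other libraries. Over all regions it rose from 10.6 per Mb at 100 to 200 kb from a start to 17.1 per Mb beyond 1500 kb. At 1000 to 1500 kb it was 16.5 per Mb, so both of these far classes were above the 14.1 per Mb outside the deserts. In the 8 libraries of replicates 1 and 2, density was higher beyond 1000 kb than at 100 to 300 kb. In proximal WENR-plus it was 7.79 against 11.5 and 9.03 against 15.1 per Mb (near against far, replicates 1 and 2). In the 4 libraries of replicate 3 it was lower beyond 1000 kb: 3.15 against 1.62, 2.51 against 0.969, 1.34 against 0.535 and 1.81 against 0.599 per Mb. The log2 ratio of far to near had a mean of -0.08 ± 0.97 over 6 lines (exact sign permutation p = 0.844). It was 0.59, 0.71 and -1.17 in proximal and 0.56, 0.28 and -1.46 in distal lines. This comparison was chosen after its values were seen.

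**Figure D3:**
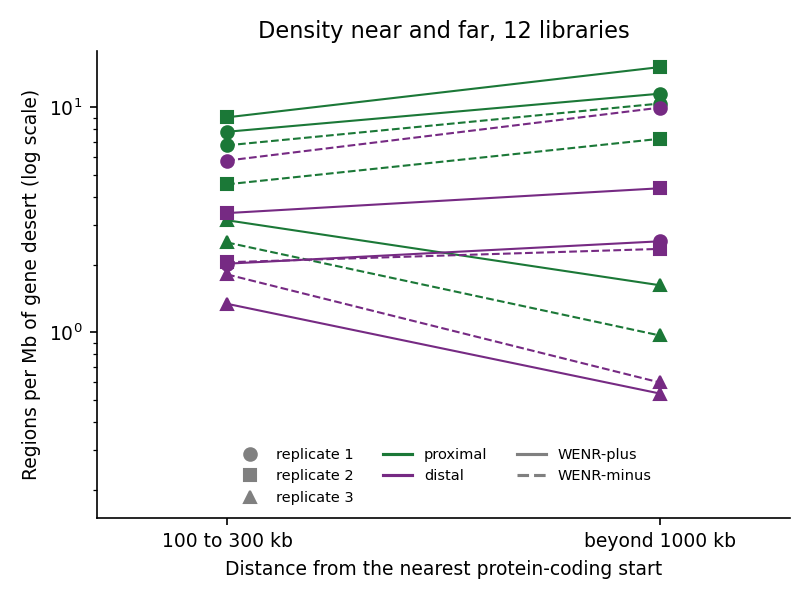
Gene-desert Cdx2 regions per Mb of desert sequence (y axis, log scale) at 100 to 300 kb and beyond 1000 kb from the nearest protein-coding start, 1 line per library. Lines of replicates 1 and 2 rise, the highest from 9.03 to 15.1, and those of replicate 3 (triangles) fall, the lowest from 1.34 to 0.535.

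Gene-desert summits carried the Cdx2 motif more often than other summits of the same libraries. A match lay within 50 bp of 64.3% ± 6.25 of gene-desert summits and 56.6% ± 4.84 of other summits (SD, n = 6 lines). The difference was 7.72 ± 1.84 percentage points, higher in 6 of 6 lines (two-sided exact sign permutation p = 0.031, or 0.25 with 3 replicate numbers as units). In the single libraries the share in deserts ran from 52.8% (proximal WENR-minus replicate 3) to 72.2% (distal WENR-plus replicate 1), and in other regions from 48.7% to 64%. In all 12 libraries the desert share was the higher one, and without replicate 3 the difference was 8.67 points. By class of the other regions, the mean over lines was 56.2% for regions between genes at 1 to 100 kb from a start, 57.8% inside genes and 46.6% within 1 kb of a start.

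The AT-rich surroundings of desert summits hold the motif more often too. In windows 1000 bp to either side, 13.2% of gene-desert and 10% of other windows had a match. With this background taken off, the shares were 51.2% and 46.6%, a difference of 4.57 ± 1.45 percentage points, again positive in 6 of 6 lines (exact sign permutation p = 0.031). The order depended on the scale. As a ratio to the flanks, 64.3% over 13.2% in deserts was a smaller multiple than 56.6% over 10% elsewhere. This subtraction was added after the shares were seen, and the ratio was not tested.

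The letters of the motif differed in use. Counted once per region at the median summit, 74.1% of gene-desert regions, 63.8% of other regions and 66.7% of all regions had a match. TTTATTA was at 31% of gene-desert and 21.8% of other regions, TTTATGA at 30.6% and 23.7%, and TTTATTG at 25.8% and 22.5%. TTTATGG went the other way, with 13.6% and 15.2%, and over lines its share was 1.25 percentage points lower at gene-desert summits (exact sign permutation p = 0.031). These shares include both strands, and a region can count under several words. Windows with 2 matches made up 28.3% of gene-desert and 20.7% of other regions.

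**Figure D4:**
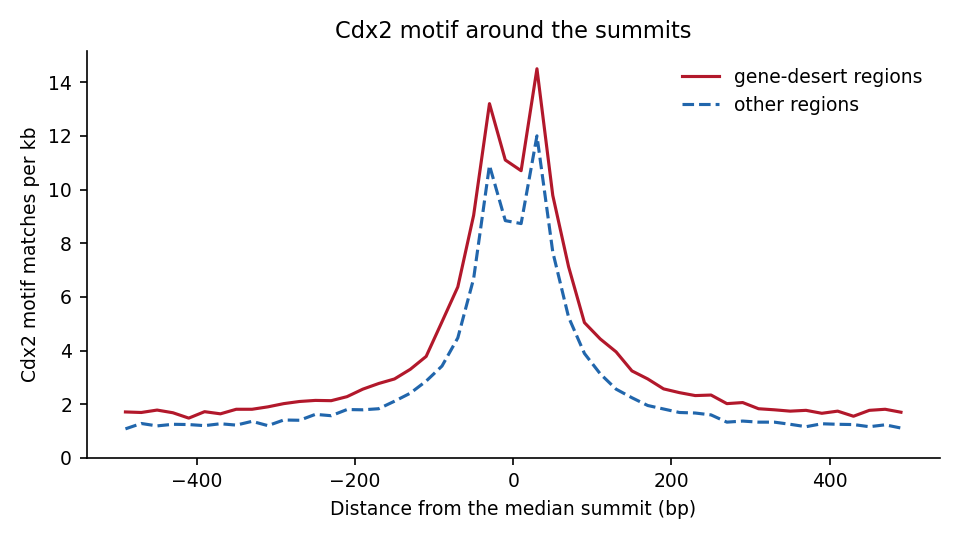
Matches to the Cdx2 motif per kb of sequence (y axis) against the distance in bp from the median summit (x axis), for 10161 gene-desert regions (solid) and 25357 other regions (dashed). Both curves have 2 peaks beside the summit, up to 14.5 per kb in gene-desert and 12 in other regions, over a level of 1.71 and 1.08 per kb at the left edge.

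The motif share grew with distance from genes. It was 70.1% (95% Wilson interval 68.4% to 71.9%) of the 2663 regions at 100 to 200 kb, 74.2% of the 2142 at 300 to 500 kb and 81% (78.3% to 83.4%) of the 915 at 1000 to 1500 kb. Over lines, the share beyond 1000 kb was 10.25 ± 4.53 percentage points above that at 100 to 300 kb (71.7% against 61.4%, higher in 6 of 6 lines, exact sign permutation p = 0.031). GC content moved with it, at 30.6% beyond 1000 kb and 36.1% at 100 to 300 kb. The part of base composition in the motif shares was not tested beyond the flanking windows. These distance classes, too, were compared after their values were seen.

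Gene-desert summits differed from others in base composition. GC content within 100 bp was 34.6% ± 2.54 against 38.6% ± 1.6, and the number of CpG sites there was 1.12 against 1.65 (SD, n = 6 lines, both lower in 6 of 6 lines). Peaks were narrower, with a median width of 267 against 289 bp. A summit lay on a soft-masked repeat base in 20.2% of gene-desert and 18.5% of other cases. Each of these had an exact sign permutation p of 0.031 and a Benjamini-Hochberg adjusted p of 0.0625 over 12 features, so none passed 0.05 after adjustment. Without replicate 3 the differences were -4.64 percentage points of GC, -0.594 CpG sites, -25.6 bp and 1.1 percentage points of repeat bases.

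Words of other intestinal transcription factors were searched in the same windows, on both strands. For HNF4 (CAAAGTCC or AAAGTCCA), a nuclear receptor of enterocytes, 1.25% of gene-desert and 2.09% of other summits had a match, and for NR5A2 (CAAGGTCA) 0.6% and 0.797%, each lower in 6 of 6 lines (exact sign permutation p = 0.031, adjusted 0.0625). AP-1 (TGA and TCA with any 1 letter between them) had 7.09% and 8.91%, and HNF1 (GTTAATNA) 2.89% and 2.47%, each with an exact permutation p of 0.0625 and an adjusted p of 0.0938. Without replicate 3 the differences were -0.845 (HNF4), -0.2 (NR5A2), -2.68 (AP-1) and 0.553 (HNF1) percentage points. The shares over all regions were 1.9%, 0.75%, 8.43% and 2.58% in the same order. The words AGATAA for GATA factors (10.5% and 10.3%), TGTTTAC for FOX factors (3.03% and 2.88%), GGAATG for TEAD factors (7.24% and 7.16%) and CTCF (CCACNAGGG, 0.153% and 0.154%) were further from the threshold, with adjusted p between 0.25 and 0.938 (exact permutation), and shares over all regions of 10.4%, 2.9%, 7.13% and 0.153%.

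The fold enrichment of gene-desert peaks ranked slightly lower within a library. The median rank was 49.6 ± 2.31 for gene-desert and 54.8 ± 3.2 for other regions (percentile of fold in the list, SD, n = 6 lines), a difference of -5.27 ± 1.59, lower in 6 of 6 lines (exact sign permutation p = 0.031, or 0.25 with 3 replicate numbers as units). In the 3 distal WENR-minus libraries the medians were equal, at 55.2, 50.3 and 50.2, in lists where many peaks share 1 fold value. Without replicate 3 the difference was -5.3. It was -1.36 with a −log10 q of at least 5 (exact permutation p = 0.125) and -0.0833 in lists of equal length (exact permutation p = 1).

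Gene-desert regions were shared by fewer libraries. They made up 33.2% of the regions called in 2 libraries and 15.1% of those called in all 12. Of the gene-desert regions, 314 (3.09%) were called in all 12 libraries, against 1765 (6.96%) of the other regions. In lists of equal length these shares were 7.65% and 11.7%. Among gene-desert regions, 5.37% of those at 100 to 200 kb but 1.28% of those at 750 to 1000 kb were in all 12. These are counts over regions of the same libraries, and no test was made on them.

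Of the 314, 6 ranked under the 1st percentile of fold in the median library. The widest (chr17:39843008-39848808, 5801 bp) lies at the start of the noncoding RNA gene AY036118 and had a median fold of 3.19. Of these 6, 5 had no match to the motif at the summit. No filter for artefact-prone regions was applied here, and the 6 remain in the counts.

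**Figure D5:**
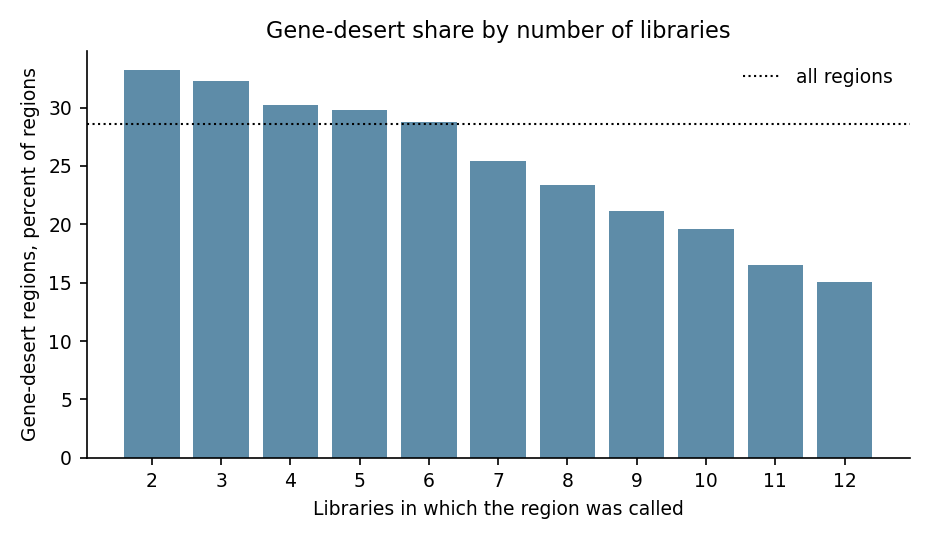
Share of gene-desert regions among all regions (y axis, percent) by the number of libraries in which a region was called (x axis, 2 to 12). The bars fall from 33.2% to 15.1%, and the dotted line marks the 28.6% of all regions.

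Few gene-desert regions followed the colon site in every library. In all, 109 (1.07%) were called in 6 proximal and 0 distal libraries, beside 1.8% of all regions, and 8 (0.0787%) in 6 distal and 0 proximal libraries, beside 0.0957%. In lists of equal length these counts were 27 and 7. Fisher's exact test per region, 6 against 6 libraries, gave an unadjusted p under 0.05 for 307 more often in proximal (3.02%, against 4.96% of all regions) and for 23 more often in distal libraries (0.226%, against 0.282%). After Benjamini-Hochberg adjustment over the 35518 regions 0 passed, the lowest adjusted p being 0.114 at the lowest p that 6 against 6 libraries allow. This test counted the libraries of the same organoids in both media as separate units. They are not independent, so the unadjusted counts are a description only. The proximal-only share of gene-desert regions was under that of all regions, and the distal-only share was near it. Gene-desert regions were also called in fewer libraries, with 31.4% of them in only 2, against 25.3% of other regions. The shares were not adjusted for this.

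The windows of the 2 highest-ranked regions of each site are shown, in the same way as above. Both proximal-only windows hold a match to the motif, and neither distal-only window does.
Auts2 region, chr5:133113398-133113498: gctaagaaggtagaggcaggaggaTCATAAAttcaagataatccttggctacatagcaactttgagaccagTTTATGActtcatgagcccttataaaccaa
Lrriq3 region, chr3:155445075-155445175: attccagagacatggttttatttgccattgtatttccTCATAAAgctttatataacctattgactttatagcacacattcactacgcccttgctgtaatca
Klf5 distal region, chr14:99610012-99610112: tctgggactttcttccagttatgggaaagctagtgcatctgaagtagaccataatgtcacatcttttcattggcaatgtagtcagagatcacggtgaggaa
Arrdc4 distal region, chr7:68568181-68568281: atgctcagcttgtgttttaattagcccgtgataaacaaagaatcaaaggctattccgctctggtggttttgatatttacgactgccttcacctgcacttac

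The Auts2 region (chr5:133112907-133113921), 572 kb from a gene of neuronal development, led the proximal-only regions, with folds of 23.1, 32.9 and 37.2 in WENR-plus and 32.8, 25.8 and 26.3 in WENR-minus proximal organoids. It had no peak in any of the 6 distal libraries, and its median summit lay on soft-masked repeat sequence. A pair of regions between Lrriq3 and Negr1 (chr3:155444698-155445557 and chr3:155487797-155488584) ranged from 9.25 to 18 and from 9.51 to 16.9. The other regions of the top 5 lay near Zfat, with folds of 9.91 to 15.6, and near Oxr1, with 10.5 to 12.5. Each of these 5 windows held the motif.

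The top 5 distal-only regions mostly had lower folds than the top 5 proximal-only regions. They were picked from 8 and 109 regions and measured in different libraries, so the strength of the classes was not compared. The first (chr14:99609847-99610385) lay 311 kb from Klf5, which encodes a transcription factor of proliferating crypt cells, with folds of 7.05, 6.66 and 7.68 in WENR-plus and 9.04, 8.68 and 8.39 in WENR-minus distal organoids. Only 1 of its 6 summits had a match to the motif. The region near Efnb2 (chr8:8103409-8103952), the gene of the Eph receptor ligand ephrin-B2, had folds of 7.93, 5.77 and 7.7 in WENR-plus and 5.08, 6.26 and 6.99 in WENR-minus, and 4 of its 6 summits had a match. The other 3 of the top 5 were nearest to Arrdc4, Vwc2 and Shb, with folds of 4.17 to 10.7. Of the 8 distal-only regions, 37.5% had the motif, and of the 109 proximal-only regions 58.7%, both under the 74.1% of all gene-desert regions.

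Within WENR-plus medium, 504 gene-desert regions (4.96%) were in all 3 proximal and 0 distal libraries, beside 8.12% of all regions, and 18 (0.177%) in all 3 distal and 0 proximal libraries, beside 0.259%. Within WENR-minus medium these counts were 214 (2.11%, beside 3.53%) and 44 (0.433%, beside 0.577%). In lists of equal length the counts were 60 and 37 in WENR-plus and 90 and 24 in WENR-minus medium. In WENR-plus the highest-ranked proximal-only regions, after that near Auts2, included one near Mid1ip1. The highest-ranked distal-only regions in WENR-plus lay near Arid1b, Dthd1 and Adgrl2, and those in WENR-minus near Klf5, Adgb and Cpne4. These classes rest on 1 medium only. In the other medium, the Cpne4 region was called in 3 proximal libraries and the Adgrl2 region in 2. The median summits of the Arid1b and Adgrl2 regions lay on soft-masked repeat sequence. The Arid1b window was a run of short tandem repeats, and 0 of its 3 library summits had the motif.

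Regions called in 1 medium only were counted in the same way. In proximal organoids 77 (0.758%, beside 1.28%) were in all 3 WENR-plus and 0 WENR-minus libraries, and 19 (0.187%, beside 0.206%) the reverse. In distal organoids 11 (0.108%, beside 0.222%) were called in WENR-plus only and 44 (0.433%, beside 0.709%) in WENR-minus only. The highest-ranked were near Ptprd, Npvf and Rfx3 (proximal, WENR-plus only), Rnf32, Edn1 and Tigd2 (proximal, WENR-minus only), Rgmb, Arid1b and Epha4 (distal, WENR-plus only) and B3gnt2, Fat1 and C030005K15Rik (distal, WENR-minus only). These classes rest on the libraries of 1 site only. The Rgmb and Epha4 regions were also called in 6 proximal libraries, and the Tigd2 and Fat1 regions in 3 libraries of the other site. The Arid1b region was the tandem repeat named above. The Rnf32 region (chr5:28971730-28972404) lay in the desert between Rnf32 and Shh, a morphogen gene of the gut. Leaving out 1 replicate number moved most of these counts by over 1.5 times: without replicate 3, 3905 regions were proximal-only in WENR-plus and 1751 WENR-plus-only in proximal organoids.

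The regions were spread over many deserts. Of the 1661 gaps over 200 kb between protein-coding genes, 1284 held a gene-desert region, with a median of 4 and at most 95. The 10 fullest held 721 regions, 7.1% of all. The median distance to the nearest other gene-desert region was 21.3 kb, 35.7% had one within 12.5 kb, and 11.8% had none within 100 kb.

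The 10 fullest gaps were 2.93 to 4.67 Mb long. The gap between Pcdh20 and Pcdh9 (chr14:88471397-93013409, 4.54 Mb), both protocadherin genes, held 95 regions, of which 82.1% had the motif. By library it held 66, 86 and 9 in proximal WENR-plus, 61, 37 and 3 in proximal WENR-minus, 14, 25 and 5 in distal WENR-plus and 54, 15 and 2 in distal WENR-minus organoids. Replicate 3 had the fewest in each group. Next came Olfm4 to Pcdh17 with 85 regions, Pcdh7 to G6pd2 with 79, and Brinp3 to Pla2g4a and Cdh6 to Cdh9 with 73 each. Olfm4 is a marker of intestinal stem cells in humans. Then came Nmbr to Cited2 and Zeb2 to Acvr2a with 68 each, Tenm3 to Aga with 63, Stim2 to Pcdh7 with 59 and Sel1l to Flrt2 with 58. Of the 721 regions in these 10 gaps, 9 were called in all 12 libraries.

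The 5 densest gaps were shorter, from 0.23 to 1.25 Mb. The gap between Klf5 and Klf12 (chr14:99315037-99870631) held 28 regions in 0.56 Mb, 50.4 per Mb of the gap, and 3 of them were in all 12 libraries. Klf5 and Klf12 encode Krüppel-like zinc finger factors. By library there were 18, 22 and 13 in proximal WENR-plus, 22, 9 and 12 in proximal WENR-minus, 12, 19 and 10 in distal WENR-plus and 17, 12 and 13 in distal WENR-minus organoids. Replicate 3 was the lowest in the WENR-plus groups but not in the WENR-minus groups. The gap between Akr1e1 and Klf6 (chr13:4609175-5861481) held 50 regions in 1.25 Mb, 39.9 per Mb, and 10 of the 50 were in all 12 libraries. Erbb4 to Ikzf2 held 20 in 0.42 Mb, and Evx1 to Hibadh, beyond the end of the HoxA cluster, 9 in 0.23 Mb. Zxdb to Spin4 on chromosome X held 12 in 0.24 Mb of known sequence, with a median of 2.5 libraries and the motif in 25%. The motif was at 53.6% in the Klf5 to Klf12 gap and at 70% in the Akr1e1 to Klf6 gap.

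The window of the region called in most libraries, and of those the highest-ranked, is shown for a pair of dense and a pair of full gaps.
Akr1e1 to Klf6 desert, chr13:5155031-5155131: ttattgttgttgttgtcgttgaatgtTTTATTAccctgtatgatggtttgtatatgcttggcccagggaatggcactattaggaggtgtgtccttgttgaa
Klf5 to Klf12 desert, chr14:99613987-99614087: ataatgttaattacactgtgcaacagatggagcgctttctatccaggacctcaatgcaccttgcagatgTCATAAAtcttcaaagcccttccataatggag
Pcdh20 to Pcdh9 desert, chr14:90919664-90919764: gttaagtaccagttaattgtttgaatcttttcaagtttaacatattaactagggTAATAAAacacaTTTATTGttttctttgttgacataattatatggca
Pcdh7 to G6pd2 desert, chr5:60536043-60536143: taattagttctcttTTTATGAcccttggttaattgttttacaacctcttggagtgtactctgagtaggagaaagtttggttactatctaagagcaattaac

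The Akr1e1 to Klf6 region (chr13:5154465-5155553) had folds of 20.3, 23.8 and 20 in proximal WENR-plus, 24.4, 21.6 and 19.3 in proximal WENR-minus, 11.9, 15.5 and 12.4 in distal WENR-plus and 12.9, 9.93 and 11.9 in distal WENR-minus organoids. All proximal values were above all distal ones, but its ranks overlapped between the sites. The Klf5 to Klf12 region (chr14:99613773-99614677), in the same gap as the distal-only region near Klf5, had 9.83, 11.3 and 12.5 in proximal WENR-plus, 8.06, 4.95 and 5.34 in proximal WENR-minus, 12, 12 and 15.4 in distal WENR-plus and 6.46, 5.76 and 7.69 in distal WENR-minus organoids. At each site its WENR-plus values were above its WENR-minus values. These regions were picked after their gaps were seen, and the orders are not tests.

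The window of the Pcdh7 to G6pd2 gap (region chr5:60535615-60536486, called in 12 libraries) and that of the Mat2b region matched each other on opposite strands, with 91 of 99 aligned bases identical (91.9%). Both summits lay on soft-masked repeat sequence. How the authors placed reads between such similar copies is not given in the sources used here. The median summits of the Cdh9, Fat1 (480 kb), Auts2 and Akr1e1 to Klf6 regions also lay on soft-masked repeat sequence.

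The Pcdh20 to Pcdh9 gap also held the most remote sites among regions called in at least 6 libraries. The farthest (chr14:90989617-90990483) lay 2519 kb from Pcdh20 and was called in 9 libraries, with folds of 4.18 to 17.9. The 4 next were 2495, 2491, 2462 and 2448 kb from the nearest start, in the same gap. The last of them (chr14:90919268-90920106), shown above, was in all 12 libraries, with folds of 5.18 to 13.5.

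Among genes with a role in the intestine, some had many gene-desert regions for which theirs was the nearest protein-coding start. Of 40 intestinal transcription factors listed, 14 had at least 1 such region (35%), 126 regions in all. The same held for 11 of 40 niche signalling genes (27.5%, 74 regions) and for 30 of 40 developmental regulators beside long gene deserts (75%, 176 regions), against 1774 of all 21911 protein-coding genes (8.1%). All lists were chosen with earlier results of these data known, and the third for its deserts, so none of these counts is an independent result. The counts were not adjusted for the length of the gaps beside each gene.

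Among the transcription factors, Myc, a driver of crypt proliferation, had 25, Klf5 21, Klf4, a factor of goblet cell differentiation, 17, Sox9, a factor of crypt base and Paneth cells, 16, and Hnf4g and Id2 9 each. Among the signalling genes, Efnb2 and Ptger4 had 19 each, the differentiation signal Bmp2 15, Fgfr2 5, and Jag1, Nrg1 and Tgfbr2 4 each. Among the developmental regulators, Zeb2 had 28, Nr2f1 15, Tfap2b 14 and Bcl11a 12.
Myc region, chr15:61877740-61877840: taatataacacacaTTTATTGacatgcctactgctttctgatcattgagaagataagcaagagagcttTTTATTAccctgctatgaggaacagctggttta
Foxa2 region, chr2:147717635-147717735: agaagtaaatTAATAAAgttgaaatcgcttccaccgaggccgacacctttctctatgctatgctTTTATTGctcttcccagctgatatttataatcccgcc
Bmp2 region, chr2:133739157-133739257: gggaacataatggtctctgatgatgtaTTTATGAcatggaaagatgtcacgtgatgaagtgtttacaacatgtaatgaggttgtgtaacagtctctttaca

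These 3 windows belong to regions in all 12 libraries. The Myc region (chr15:61877148-61878300, 108 kb from Myc) had folds of 16.5, 24.5 and 22.3 in proximal WENR-plus, 15.6, 12 and 13 in proximal WENR-minus, 7.93, 5.44 and 11.5 in distal WENR-plus and 7.42, 5.92 and 5.43 in distal WENR-minus organoids. The lowest proximal value was just above the highest distal one, an order that was not tested or counted over all regions. The Bmp2 region (chr2:133738535-133739868, 187 kb from Bmp2) had 29.5, 31 and 21.3 in proximal WENR-plus, 37.9, 13 and 33.7 in proximal WENR-minus, 8.38, 16 and 8.66 in distal WENR-plus and 9.1, 9.86 and 14.3 in distal WENR-minus organoids, and here the sites overlapped. The Foxa2 region (chr2:147717218-147718225), 328 kb from the gene of a forkhead factor of endoderm, ran from 8.28 to 22.6. The motif lay near 11, 10 and 12 of the 12 summits of the Myc, Bmp2 and Foxa2 regions.

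Noncoding genes lay within the deserts. Of the gene-desert regions 978 (9.63%) were inside a long noncoding RNA gene, against 7.45% of other regions, and 71 (0.699%) were within 1 kb of a long noncoding RNA start, against 1.45%. Those called in all 12 libraries lay at the starts of 1700003I22Rik, Gm32540, Gm47751, Gm829 and AY036118. The first 4 had median ranks of 94.2, 89.6, 88.6 and 79.8 and held the motif, and AY036118 was the wide, weak region described above.

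The regions nearest to the 100 kb limit show how the choice acted. Just inside lay regions 100.03 kb from Adamts15 (7 libraries, median rank 7.48), 100.09 kb from Hsd17b3 (3 libraries, 58) and 100.09 kb from Pde3a (3 libraries, 7.68). Just outside lay regions 99.984 kb from Chd7 (2 libraries, 37.4), 99.938 kb from Dact1 (2 libraries, 30.7) and 99.89 kb from Spred2 (11 libraries, 82.3).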

How the data were processed

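The 12 Cdx2 libraries were analysed from their deposited peak lists; the 12 input libraries were used only as controls of the authors' peak calls. Per the study's methods, reads were trimmed (Trimmomatic 0.39), aligned to mm10 (Bowtie2 2.4.5), stripped of duplicates (SAMtools 1.13) and called per library against the matched input (MACS2 2.2.7.1, q-value 0.01); versions are from the submitters' processing notes, and the study's supplement names other versions of Bowtie2 and SAMtools. The score, the fold enrichment (a ratio at the summit) and the −log10 p and −log10 q were deposited by the authors; the lists hold no read totals, and signal tracks were not used here. Fold was ranked within a list only.

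Overlaps of at least 1 bp on chromosomes 1 to 19, X and Y joined peaks into regions, and 63 to 104 peaks per library elsewhere were left out. Starts and gene bodies came from GENCODE vM21, sequence from RefSeq GRCm38. Motifs were searched within 50 bp of each summit. Groups were compared by two-sided exact permutation, and features of gene-desert against other regions by sign permutation over 6 lines, with Benjamini-Hochberg adjustment per family. The 95% Wilson intervals of shares take in counting error alone. The methods name separate mice, but the labels give replicate numbers only, so p-values measure the spread between these samples.

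Named regions were the highest-ranked of each class (10 in all 12 libraries; 5 per site; 3 per comparison and group), the 5 farthest in at least 6 libraries, the 10 fullest and 5 densest gaps (at least 5 regions), and the 5 genes of each list with most regions, ties included; windows of single gaps and genes and the noncoding starts were picked after values were seen. Some regions and genes under this rule are not reported here. The members, lists and tests were chosen with earlier results of these data known. Scripts were tested on simulated data. Alternatives were other distances (50 and 200 kb), annotations, overlaps and q limits, lists of equal length, and leaving out each replicate number. Python 3.11.15, numpy 2.4.6, pandas 2.3.3, scipy 1.17.1, matplotlib 3.10.9 and Biopython 1.88 were used.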

Additional observations from a re-analysis of the deposited data

Results flagged for a closer look

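Regions called in only 1 library entered the comparisons only under 1 alternative setting. Of these, 9017 lay in gene deserts by the same distance, 7938 of them in a proximal and 1079 in a distal library. The Cdx2 motif lay within 50 bp of the summit in 56.7% (95% Wilson interval 55.6% to 57.7%), above the 13.7% of the windows 1000 bp to either side, which served as the background. No other result met the rules for a closer look.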

How the results depend on the processing

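Of 352 recomputed values, 259 kept their direction and their side of the threshold or stayed within the limit set for counts. The number of gene-desert regions was 6706 with a −log10 q of at least 5, 2183 in lists of equal length, 2325 with genes of every type as the reference and 19178 when 1 library sufficed, and 5639 to 9936 with 1 replicate number left out.

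The motif difference of 7.72 percentage points kept its sign except with TTTATGG alone (-1.25), and ran from 7.15 to 8.67 without 1 replicate number. The difference in rank was -1.36 with the stricter q, -0.0833 in lists of equal length and -4.58 where a peak had to cover 50% of a region, and -5.39 to -3.66 without 1 replicate number. The log2 density ratio ran from -0.94 to -0.38 without 1 replicate number and was -0.98 in lists of equal length. With 4 lines the smallest p is 0.125, and with 3 replicate numbers as units (7.72, -5.27 and -0.72) it is 0.25, so under these settings no test could pass. For the losses of the rank difference with the stricter q, equal lists and the 50% cover, the cause was not tested. Chosen after seeing the data, the motif difference net of flanks was 4.57, the mean rank difference -3.08 and the density ratio without chromosome Y -0.64 (each exact permutation p = 0.031). As a ratio to the flanks, the motif share was lower in gene-desert than in other regions.

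Same-numbered libraries deviated together only weakly by correlation (from -0.05 to 0.29), and the main group tests did not take the numbers as pairs. The 4 libraries of replicate 3 were nevertheless alike in gene-desert share (15.1% to 16.9%) and in GC content. The paper reports that independent mouse groups accounted for most variation in Cdx2 binding sites. The unpaired group tests leave such sharing out. With the replicate number as a block, the log2 differences of 1.70, 0.69, 0.54 and -0.47 had an exact permutation p of 0.25 to 0.75, the smallest possible being 0.25, and no call changed. Values that changed sign were the share difference between sites in WENR-minus (-0.952 in lists of equal length, and -2.2 to 3.23 without 1 replicate number), the share difference between media in proximal (-0.572 to 1.57) and distal organoids (-2.68 to 0.293), the distal difference in log2 number between media (-1.01 to 0.15), the CTCF share (-0.0138 to 0.0109) and the TEAD share (-0.403 to 0.348). None of these had passed a test.

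Exclusive counts moved most. In the order 6 proximal and 0 distal, the reverse, 3 proximal and 0 distal and its reverse in WENR-plus, the same pair in WENR-minus, WENR-plus-only and WENR-minus-only in proximal and the same in distal organoids, they were 109, 8, 504, 18, 214, 44, 77, 19, 11 and 44. They were 90, 4, 341, 12, 193, 25, 44, 18, 8 and 28 with the stricter q, 27, 7, 60, 37, 90, 24, 6, 34, 11 and 16 in lists of equal length, 63, 0, 421, 3, 147, 25, 61, 16, 3 and 41 where a peak had to cover 50% of a region, 153, 10, 712, 24, 313, 61, 112, 23, 13 and 71 at 50 kb, 75, 4, 316, 9, 138, 24, 42, 12, 7 and 23 at 200 kb and 21, 1, 93, 3, 40, 4, 15, 4, 2 and 7 with genes of every type. Without 1 replicate number they ran over 157 to 336, 12 to 20, 695 to 3905, 30 to 54, 368 to 724, 78 to 96, 131 to 1751, 32 to 107, 19 to 98 and 76 to 242. The cause was not tested, except that fewer regions remain at 200 kb and with genes of every type, and fewer libraries must agree when 1 is left out. Read totals were not set against the counts, and the part of depth was not tested.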
